A study of Mus musculus with 16 samples.

Results

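This account describes 10 mouse genes of the inflammasome and the interleukin-1 family, Nlrp3, Nlrc4, Pycard, Casp1, Casp4, Gsdmd, Il1a, Il1b, Il18 and Il1rn, in macrophages sorted from liver cancer. The members were chosen by name, and all 10 were found among the 26931 genes of the deposited expression table. The study sequenced RNA of F4/80-positive cells, taken from the tumours of wild-type mice by magnetic sorting. Its 16 samples formed treatment groups of 4, which received anti-PD-1 together with anti-CX3CR1, anti-PD-1 alone, anti-CX3CR1 alone or control IgG. PD-1 is an inhibitory receptor best known on T cells, and CX3CR1 is a chemokine receptor of monocytes and macrophages. The tumour model, the age of the mice and the doses are not given in the labels used here, nor is it stated whether replicates were different mice.

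The table held 15 value columns, numbered from 1 to 16 with the number 2 skipped, and no column name matched a single sample. The columns are therefore described as libraries without a treatment, by the number in the header. No treatment was compared, and no library number was read as a treatment.

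An inflammasome is a protein complex that assembles in the cytosol when a sensor such as NLRP3 or NLRC4 detects damage or microbial products. The adaptor ASC, encoded by Pycard, links the sensor to caspase-1, which cleaves the precursors of IL-1β and IL-18 and opens the pore protein gasdermin D. In macrophages the transcripts of Nlrp3 and Il1b are typically induced by NF-kB signalling before any inflammasome assembles, so transcript levels do not show inflammasome activity. The product of Il1rn, the IL-1 receptor antagonist, occupies the receptor of IL-1α and IL-1β without signalling.

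Before the members are described, the libraries themselves need a description. By whole-transcriptome distance, with the members left out, the 15 libraries were divided into 4 sets of 3 or 4. The number of sets was set to 4, as many as the treatment groups, and was not estimated from the distances. No set was matched to a treatment. These were libraries 1, 3 and 4, libraries 5 to 8, libraries 9 to 12 and libraries 13 to 16. The root mean square distance between libraries was at most 0.21 within a set and at least 0.22 between sets, on the log2(FPKM + 1) scale over 10682 genes. The sets were thus separated by a narrow margin, and within 3 of them the libraries lay in closer pairs, 5 with 6, 7 with 8, 9 with 10, 11 with 12, 13 with 14 and 15 with 16, at distances of 0.12 to 0.14. Il1a and Il1rn differed between these pairs within libraries 9 to 12 and within libraries 13 to 16, as their values show. With the number of sets so chosen, none reached the 6 libraries needed for a correlation, and a correlation over all 15 would restate their separation. Co-variation was therefore described by values and by ratios within a library, with no test.

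The whole reads behind the FPKM values, recovered from the steps between low values, came to between 37232051 and 40564783 per library. No 2 libraries agreed within sampling noise, since the median squared difference over genes was at least 3.38 times that expected from counting alone. Markers of macrophages were high in every library, with Adgre1, which encodes F4/80, at 67.4 to 88.4 FPKM and the 12 macrophage core genes summing to 10266 to 12276 FPKM. Markers of other cells were present at lower levels. The summed hepatocyte list lay between 266.9 and 354 FPKM in libraries 5 to 8 and between 68.8 and 168 FPKM in the other libraries. The summed T and NK cell list lay between 172 and 178 FPKM in libraries 5 to 8 and between 35.5 and 70.7 FPKM in the others. Their part in the levels of the members was not tested. In sorted bulk RNA, fewer cells of a type and less RNA per cell cannot be told apart.

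**Figure D1:**
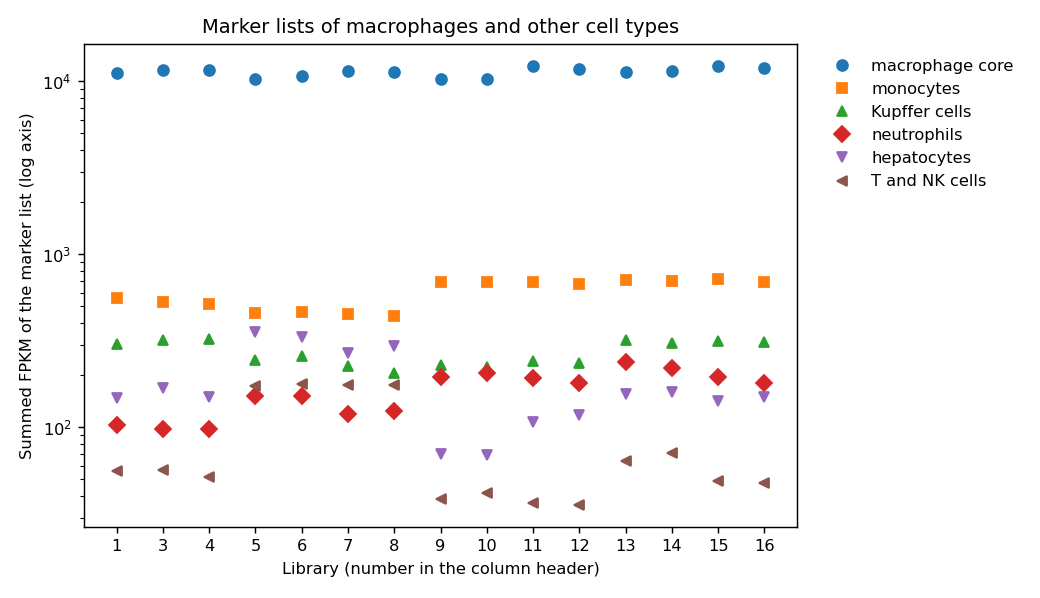
Summed FPKM (log axis) of 6 marker lists in each library, 1 symbol per list. The macrophage core list lies at 10266 to 12276 FPKM, and the hepatocyte list and the T and NK cell list are highest in libraries 5 to 8.

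Il1b, Il1a and the antagonist gene Il1rn stood above the other 7 members in every library, whereas the cytokine gene Il18 was among the lowest. Il1b had the highest median, 4038 FPKM, and ranked between 7 and 13 among all genes of a library. Il1a followed at a median of 1191 FPKM and Il1rn at 719 FPKM. Together the 10 genes took between 1.01% and 1.43% of the summed FPKM of a library.

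Of the machinery, Nlrp3 had a median of 124 FPKM, Gsdmd 62.0 FPKM, Casp4 50.4 FPKM, Casp1 37.7 FPKM and Pycard 27.0 FPKM. Il18 and Nlrc4 were the lowest, with medians of 8.84 and 3.86 FPKM. FPKM is scaled to gene length, so these levels can be set beside each other, although the length model behind them is not given in the sources used here. Each gene in this order exceeded the next in 15 of 15 libraries. The ranges over libraries overlapped only between Il1a and Il1rn and between Gsdmd and Casp4. The closest neighbours were Casp1 over Pycard, with a ratio within a library of 1.04 to 1.89, and Gsdmd over Casp4, with a ratio of 1.05 to 1.35.

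**Figure D2:**
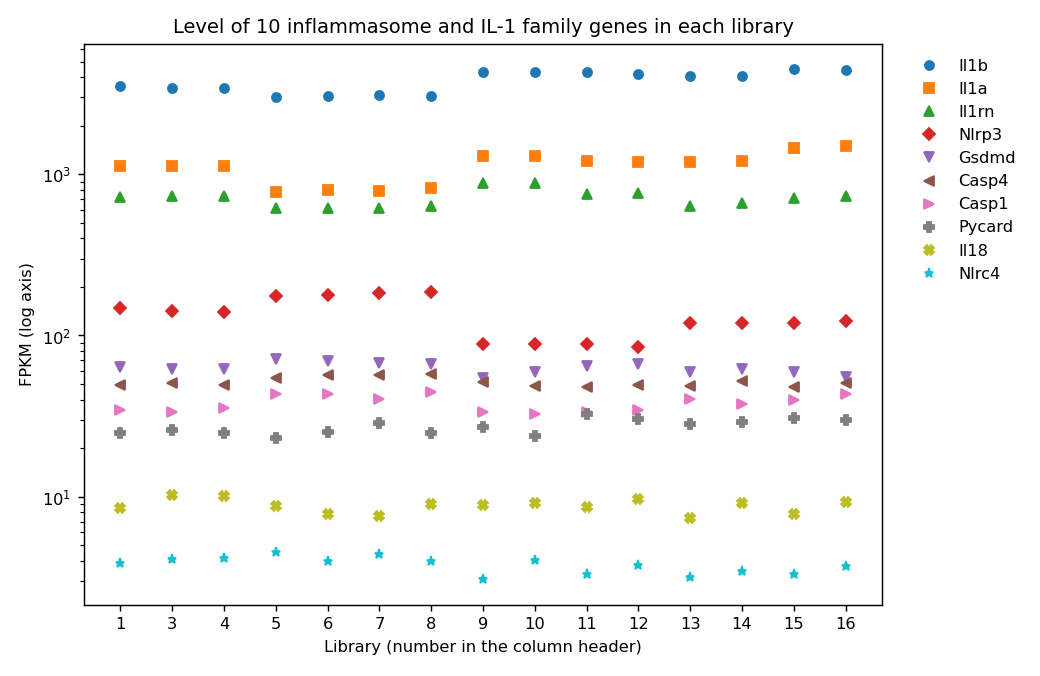
FPKM (log axis) of the 10 genes in each of the 15 libraries, 1 symbol per gene. Il1b, Il1a and Il1rn lie at 617 FPKM or more in every library, and Nlrc4 at 4.56 FPKM or less.

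The promoters of the genes whose levels the following values turn on are shown first. Each window runs from 250 bases before to 50 bases after a RefSeq transcription start on GRCm38.p6, read on the strand of the gene. Windows were found for 9 of the 10 genes, Gsdmd being the exception. Capitals mark matches on either strand to TATAAA (the TATA box), TGANTCA (an AP-1 site) and GAGGAA (the core bound by PU.1, a macrophage transcription factor), and none of the marked matches overlap. Il1b lies at chr2:129371090-129371389 on the minus strand, Il1a at chr2:129309923-129310222 on the minus strand, Il1rn at chr2:24336610-24336909 on the plus strand and Nlrp3 at chr11:59542436-59542735 on the plus strand. This Nlrp3 window lies inside the annotated gene. The other Nlrp3 window, at chr11:59541319-59541618, spans the annotated start of the gene, 59541568, and held no match to any of these motifs.
Il1b: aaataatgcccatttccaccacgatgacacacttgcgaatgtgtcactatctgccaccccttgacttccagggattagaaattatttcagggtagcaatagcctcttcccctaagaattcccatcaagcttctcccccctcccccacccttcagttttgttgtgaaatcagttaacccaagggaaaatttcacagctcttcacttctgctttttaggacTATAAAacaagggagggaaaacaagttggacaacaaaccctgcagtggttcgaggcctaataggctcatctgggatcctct
Il1a: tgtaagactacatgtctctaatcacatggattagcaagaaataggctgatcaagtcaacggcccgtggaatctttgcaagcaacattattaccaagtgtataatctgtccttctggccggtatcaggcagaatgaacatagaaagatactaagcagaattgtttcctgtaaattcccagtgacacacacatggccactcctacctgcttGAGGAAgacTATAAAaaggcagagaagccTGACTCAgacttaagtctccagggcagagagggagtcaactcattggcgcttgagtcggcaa
Il1rn: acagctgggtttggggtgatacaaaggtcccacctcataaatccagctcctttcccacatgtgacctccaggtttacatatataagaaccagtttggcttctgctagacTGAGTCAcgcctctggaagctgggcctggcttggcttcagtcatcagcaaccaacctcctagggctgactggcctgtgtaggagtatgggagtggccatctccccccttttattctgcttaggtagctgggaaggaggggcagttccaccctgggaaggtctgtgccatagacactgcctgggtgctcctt
Nlrp3: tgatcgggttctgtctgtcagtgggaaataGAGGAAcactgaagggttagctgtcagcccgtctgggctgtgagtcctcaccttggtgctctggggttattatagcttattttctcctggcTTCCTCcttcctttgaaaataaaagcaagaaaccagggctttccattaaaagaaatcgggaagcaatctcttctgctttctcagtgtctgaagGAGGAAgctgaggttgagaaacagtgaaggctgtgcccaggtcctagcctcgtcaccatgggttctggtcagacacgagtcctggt

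The Il1b and Il1a windows each held TATAAA, with its first base at position -31 in Il1b and -32 in Il1a, counted from the start at 0. TATAAA was found in 4 of the 9 members with a window, Il1a, Il1b, Il18 and Il1rn, and in 13.6% of all 32851 windows of this length. For Il1rn and Il18 it lay elsewhere than just before the start. TGANTCA was found in 2 of 9 members, Il1a and Il1rn, against 7.81% of all windows. GAGGAA was found in 4 of 9, Nlrp3, Pycard, Casp1 and Il1a, against 28.3% of all windows. Nlrp3 and Casp4 had 2 windows each and Il1rn 3, and a member was counted when any of its windows held the motif. The 9 members had 13 windows, so counts of members and shares of single windows are unlike measures. No excess is read from them. A match describes the letters of the window and not binding.

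Nlrp3, the sensor for a wide range of danger signals, spans chromosome 11 from 59541568 to 59566956 on the plus strand in GENCODE M21 on GRCm38. It had the widest range of the 10 members as deposited, but not under median-of-ratios scaling, where Il1a had 2.14-fold and Nlrp3 1.90-fold. It measured 147, 142 and 141 FPKM in libraries 1, 3 and 4, then 177, 178, 183 and 185 FPKM in libraries 5 to 8, then 88.2, 88.6, 88.1 and 85.0 FPKM in libraries 9 to 12, and 119, 120.0, 119 and 124 FPKM in libraries 13 to 16. The 4 sets of libraries did not overlap, and the highest library was 2.18-fold above the lowest (95% counting interval 2.13 to 2.22). Libraries 5 to 8 were the highest and libraries 9 to 12 the lowest under each of the 3 scalings tried.

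Nlrc4, the sensor that responds through NAIP proteins to bacterial flagellin and secretion systems, spans chromosome 17 from 74425438 to 74459142 on the minus strand. It lay at a lowest of 3.07 FPKM in library 9, a median of 3.86 FPKM and a highest of 4.56 FPKM in library 5. These rest on 492 and 730 reads, with exact 95% Poisson intervals of 2.81 to 3.36 FPKM and 4.24 to 4.91 FPKM.

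Pycard, the adaptor, spans chromosome 7 from 127989708 to 127993867 on the minus strand. Its lowest value was 23.1 FPKM in library 5, its median 27.0 FPKM and its highest 32.4 FPKM in library 11. The Nlrp3 to Pycard ratio ran from 2.72 in library 11 to 7.66 in library 5, with a median of 4.23.

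Casp1 and Casp4 encode the inflammatory caspases, and Casp4 is the mouse gene also known as caspase-11, which senses lipopolysaccharide in the cytosol. They lie 1562 bases apart on chromosome 9, Casp1 from 5298517 to 5307265 and Casp4 from 5308828 to 5336783, both on the plus strand. Casp1 ranged from 32.5 FPKM in library 10 through a median of 37.7 FPKM to 44.6 FPKM in library 8. Casp4 had the narrowest range of the members as deposited, from 48.2 FPKM in library 11 through a median of 50.4 FPKM to 57.6 FPKM in library 8. Libraries 5 to 8 were the 4 highest in Casp4 at 54.7, 56.6, 56.9 and 57.6 FPKM, above the 48.2 to 52.2 FPKM of all others. This order did not hold under median-of-ratios scaling, where libraries 9, 8, 7 and 12 were the highest. After rescaling to equal sums Pycard had the narrowest range, 1.29-fold, with Casp4 at 1.34-fold. Without libraries 5 to 8 the highest Casp4 value was 1.08-fold above the lowest.

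Gsdmd, whose product forms the membrane pore, spans chromosome 15 from 75862327 to 75867408 on the plus strand. It measured 71.2, 69.8, 67.4 and 66.4 FPKM in libraries 5 to 8 and 54.4 to 66.9 FPKM in the others, so these ranges overlapped. The Casp4 to Gsdmd ratio was the most constant of all 45 pairs of members, at 0.74 to 0.95, a 1.28-fold range. Without libraries 5 to 8 that of Il1a to Il1b was narrower, at 1.21-fold. Casp4 and Gsdmd themselves had narrow ranges as deposited, 1.20-fold and 1.31-fold, and their ratio varied more than Casp4 alone. The narrow range of this ratio therefore does not show that the Casp4 and Gsdmd transcripts varied together.

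Among the cytokines, Il1a and Il1b both had their 4 lowest values in libraries 5 to 8, where Nlrp3 was highest. Il1b, the agonist that needs caspase cleavage, spans chromosome 2 from 129364570 to 129371139 on the minus strand. It measured 3509, 3434 and 3426 FPKM in libraries 1, 3 and 4, then 2993, 3076, 3109 and 3042 FPKM in libraries 5 to 8, then 4324, 4283, 4313 and 4206 FPKM in libraries 9 to 12, and 4064, 4038, 4463 and 4432 FPKM in libraries 13 to 16. Libraries 5 to 8 were the lowest under each of the 3 scalings, and the highest library was 1.49-fold above the lowest (95% counting interval 1.48 to 1.499).

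Il1a, the agonist that is active without cleavage, lies 54597 bases from Il1b, from 129299610 to 129309972 on the minus strand of chromosome 2. It measured 1122, 1127 and 1126 FPKM in libraries 1, 3 and 4, then 772, 798, 788 and 821 FPKM in libraries 5 to 8, then 1302, 1304, 1211 and 1191 FPKM in libraries 9 to 12, and 1193, 1209, 1448 and 1502 FPKM in libraries 13 to 16. The largest step was that between libraries 5 to 8 and all others, and the highest library was 1.94-fold above the lowest (95% counting interval 1.93 to 1.96). Without libraries 5 to 8 the range narrowed to 1.34-fold.

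Il18, the cytokine also released by caspase-1, spans chromosome 9 from 50554827 to 50581840 on the plus strand. It ranged from 7.38 FPKM in library 13 through a median of 8.84 FPKM to 10.2 FPKM in library 3. Reads at these ends numbered 759 and 1037.

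Il1rn, the antagonist, spans chromosome 2 from 24336853 to 24351494 on the plus strand. It measured 719, 736 and 731 FPKM in libraries 1, 3 and 4, then 617, 620, 620 and 638 FPKM in libraries 5 to 8, then 877, 884, 758 and 762 FPKM in libraries 9 to 12, and 639, 659, 713 and 735 FPKM in libraries 13 to 16. Libraries 9 and 10 stood highest, and libraries 5 to 8 were the lowest as deposited and under median-of-ratios scaling. With libraries rescaled to equal sums, library 13 was the lowest and library 8 was no longer among the 4 lowest, and the 4 highest were libraries 10, 9, 4 and 3 in place of libraries 9 to 12.

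**Figure D3:**
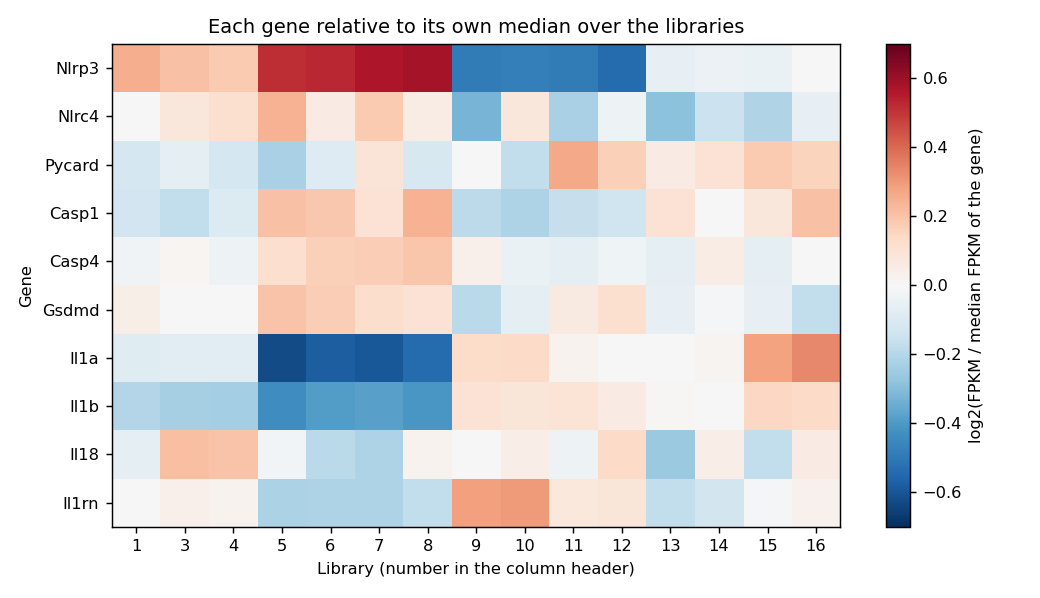
Each gene's log2 ratio to its own median over the 15 libraries, in colour, with genes as rows and libraries as columns. Nlrp3 is above its median and Il1a and Il1b are below theirs in libraries 5 to 8, while Nlrp3 is below its median and Il1rn is above in libraries 9 to 12.

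Set against all genes as deposited, the members did not have wider ranges as a group. The background was not matched for read number, and counting noise widens the range of genes with few reads. Among the members, Il1b rests on 218934 or more reads per library and Nlrc4 on as few as 492. The shares below therefore set genes of unlike counting noise side by side. Of the 10 members, 2 (Nlrp3 and Il1a) had a highest library at least 1.5-fold above the lowest, against 50.2% of the 10692 genes with a mean of at least 1 FPKM. For a range of at least 2-fold the count was 1, Nlrp3, against 15.2% of all genes. Under median-of-ratios scaling the 1 member past 2-fold was Il1a, at 2.14, with Nlrp3 at 1.90, against 12.6% of all genes. Without libraries 5 to 8 the count was 0, against 8.997% of all genes. The median range was 1.42-fold over the 10 members and 1.501-fold over all genes. A range larger than that of Nlrp3 was found in 10.97% of the genes tested, and one larger than that of Casp4 in 94.7%. The count at 1.5-fold depended on the scaling, with 3 members after rescaling to equal sums, 5 after median-of-ratios scaling and 1 without libraries 5 to 8. The share of all genes past 1.5-fold was then 59.4%, 43.8% and 38.0%, in the same order.

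**Figure D4:**
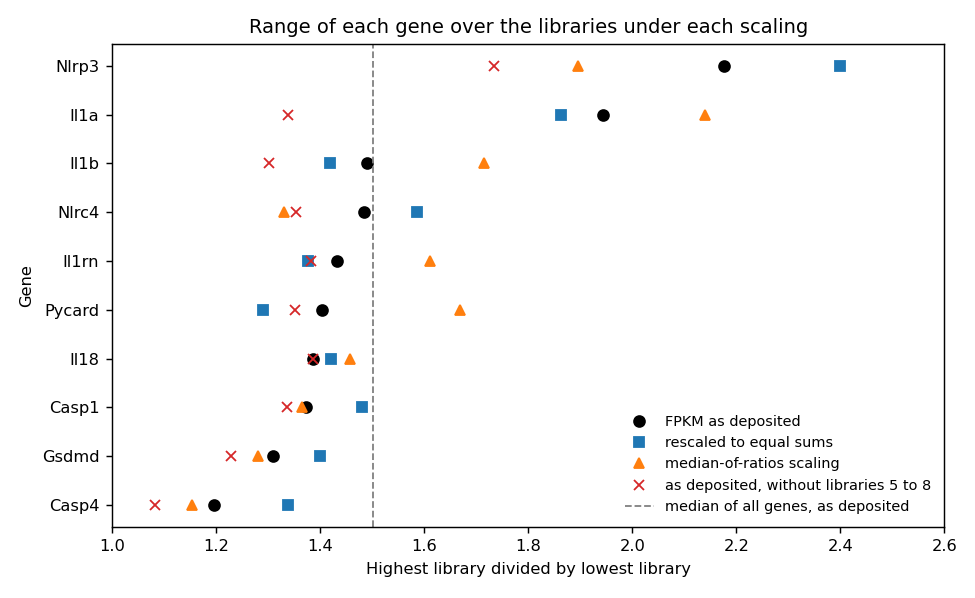
Highest library divided by lowest library for each gene, as deposited (circles), rescaled to equal sums (squares), under median-of-ratios scaling (triangles) and without libraries 5 to 8 (crosses). The dashed line is the median of all genes as deposited over all 15 libraries, 1.501, and was not redrawn for the other settings. Nlrp3 lies to the right of this line under each setting shown, and Casp4 to the left.

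Ratios within a library do not depend on how libraries were scaled. The ratio of Nlrp3 to Il1a had the widest range of the 45 pairs, from 0.068 in library 9 to 0.23 in library 7, a 3.42-fold range. Without libraries 5 to 8 it was 1.94-fold, and Nlrp3 to Pycard had the widest, 2.19-fold. As deposited, the 4 libraries with the most Nlrp3 were the 4 with the least Il1a, the 4 with the least Il1b and the 4 with the least Il1rn. In the other direction, the 4 libraries with the least Nlrp3 were the 4 with the most Il1rn as deposited, but held 2 of the 4 with the most Il1a or Il1b. The 4 libraries with the most Nlrp3 were also the 4 with the most Casp4 as deposited.

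The Nlrp3 to Il1b ratio was 0.042, 0.041 and 0.041 in libraries 1, 3 and 4, lay between 0.058 and 0.061 in libraries 5 to 8, at 0.020 to 0.021 in libraries 9 to 12 and between 0.027 and 0.030 in libraries 13 to 16. Its 4 ranges did not overlap and spanned 3.01-fold in all, or 2.08-fold without libraries 5 to 8. The sensor transcript and the cytokine transcript thus did not keep a fixed proportion.

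Il1a and Il1b held closer together, whereas the cytokine gene Il18 did not keep to them. The ratio of Il1a to Il18 had a 2.09-fold range and that of Il1b to Il18 a 1.70-fold range. The Il1a to Il1b ratio ran from 0.25 in library 7 to 0.34 in library 16, a 1.34-fold range, the narrowest after that of Casp4 to Gsdmd over all 15 libraries. It was lowest in libraries 5 to 8, at 0.25 to 0.27, against 0.28 to 0.34 elsewhere.

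The antagonist to agonist ratio separated the libraries differently from the levels. Il1rn over Il1b lay between 0.199 and 0.214 in libraries 1 and 3 to 10, at 0.176 and 0.181 in libraries 11 and 12 and between 0.157 and 0.166 in libraries 13 to 16. Over the sum of both agonists, Il1rn ran from 0.121 in library 15 to 0.165 in library 8, with a median of 0.156. Libraries 5 to 8, lowest in all 3 of these genes as deposited, therefore did not stand apart in this ratio from libraries 1, 3, 4, 9 and 10.

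**Figure D5:**
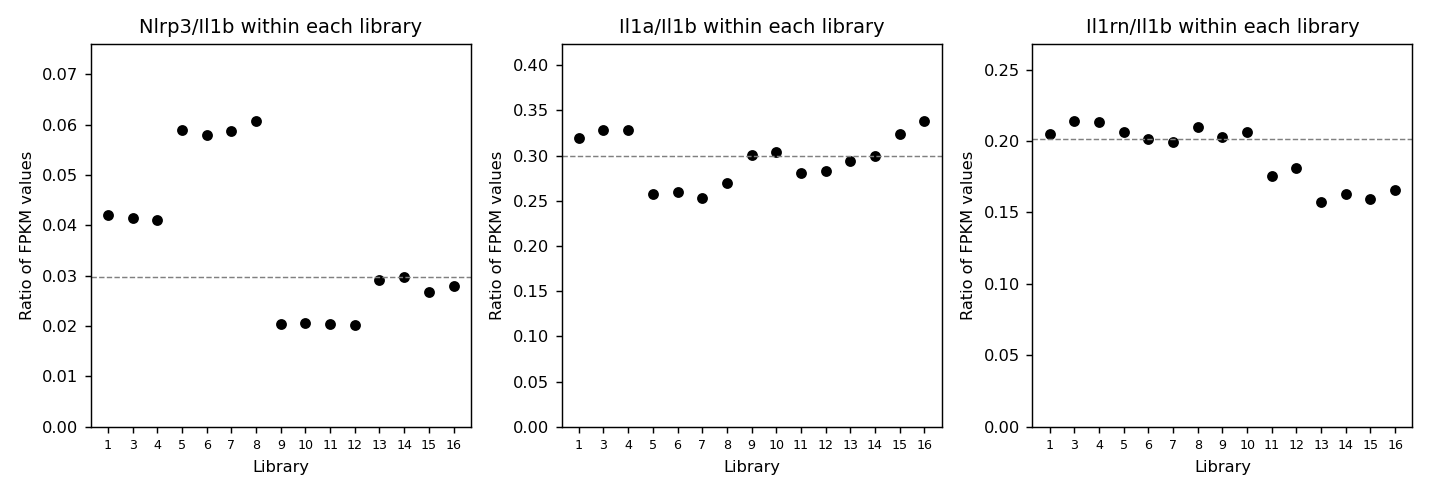
Ratio of FPKM values within each library for Nlrp3, Il1a and Il1rn, each over Il1b, on axes from 0, with the median as a dashed line. Nlrp3/Il1b is highest in libraries 5 to 8 and lowest in libraries 9 to 12, whereas Il1rn/Il1b is lowest in libraries 13 to 16.

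Several marker lists differed between the same libraries. Libraries 5 to 8, highest in Nlrp3 and lowest in Il1a and Il1b, had the highest sums of 8 hepatocyte and 10 T and NK cell markers given above. They also had the lowest monocyte sums, at 440 to 466 FPKM against 518 to 716 FPKM in the others. Of the hepatocyte list, 8 of 8 genes had a mean of at least 1 FPKM, and Alb, which encodes albumin, reached 224 FPKM in library 5. Of the T and NK cell list, 8 of 10 had a mean of at least 1 FPKM, each with its 4 highest values in libraries 5 to 8. Ncr1, a marker of NK cells, was listed at 0 in some libraries, and Klrb1c was highest in libraries 15, 4, 3 and 1. The higher T and NK cell sum therefore does not extend to every marker of that list. Macrophage core sums did not set libraries 5 to 8 apart, at 10299 to 11476 FPKM against 10266 to 12276 FPKM in the others. Libraries 9 to 12, lowest in Nlrp3, were the 4 lowest in hepatocyte sums (68.8 to 118 FPKM), T and NK cell sums (35.5 to 41.4 FPKM), endothelial sums (70.8 to 81.5 FPKM) and proliferation sums (80.2 to 93.3 FPKM). They were the 4 highest in dendritic cell sums, at 162 to 171 FPKM. Of that list Ccr7, at up to 112 FPKM, was also highest in these 4 libraries. Siglech was lowest in the same 4, and Clec9a was lowest in libraries 10, 9, 12 and 1. The sum therefore does not stand for every marker of the list. The part of these cells in the members' levels was not tested.

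Neutrophils are another rich source of Il1b and Il1rn transcripts. Their 12 markers summed to between 97.8 FPKM in library 3 and 239 FPKM in library 13, and 7 of 12 had a mean of at least 1 FPKM. S100a8 and S100a9, which monocytes share, made up much of the sum, while the defining marker Ly6g stayed between 0.029 and 0.54 FPKM. The neutrophil sum was 97.8 to 152 FPKM in libraries 1 and 3 to 8 and 180 to 239 FPKM in libraries 9 to 16. Il1b divided at the same place, with at most 3509 FPKM in libraries 1 and 3 to 8 and at least 4038 FPKM in libraries 9 to 16. Not every neutrophil marker followed the sum. Csf3r had its 4 highest values in libraries 5 to 8, whereas Retnlg and Mmp8 had theirs within libraries 9 to 16. The part of neutrophils in the level of Il1b was not tested. The summed lists of Kupffer cells (207 to 325 FPKM), dendritic cells (110 to 171 FPKM), endothelial cells (70.8 to 149 FPKM) and proliferating cells (80.2 to 118 FPKM) were present in every library. Stellate cell and fibroblast markers summed to 244 to 407 FPKM, and were highest in libraries 9 to 12, which were also highest in Il1rn as deposited, though after rescaling to equal sums only libraries 9 and 10 of these were among the 4 highest in Il1rn. Their part was not tested. Mast cell and basophil markers summed to at most 1.38 FPKM, and B cell and plasma cell markers to at most 12.4 FPKM.

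Other genes of the pathway were read from lists chosen by function. Counts past 1.5-fold in these lists stand against the 50.2% of all genes given above, and the order of libraries is as deposited. Of 12 other sensors and adaptors, 9 had a mean of at least 1 FPKM, and 3 of the 9 had a range of at least 1.5-fold, Nlrp1a, Nlrp1b and Pstpip1. Mefv, which encodes the sensor pyrin, had the highest median of the list, 40.5 FPKM, and ranged from 37.7 to 42.5 FPKM. Pstpip1, which encodes a pyrin-binding protein, was highest in library 12 at 53.2 FPKM and lowest in library 5 at 30.2 FPKM. Aim2, the sensor of cytosolic DNA, ranged from 5.02 to 6.73 FPKM.

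Ninj1, whose product ruptures the plasma membrane after pore formation, had a median of 253 FPKM and a range of 224 to 286 FPKM. Of 9 genes for ion channels and priming, 4 passed 1.5-fold, P2rx7, Panx1, Txnip and Irak3. Txnip, whose product binds thioredoxin, had the highest median, 87.8 FPKM, and its 4 highest libraries were 5, 6, 7 and 8 as deposited. Irak3, an inhibitor of IL-1 receptor signalling, was lowest in those 4 libraries and reached 15.4 FPKM in library 15.

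Among IL-1 family receptors and binding proteins, 7 of 9 had a mean of at least 1 FPKM, and 7 of those 7 passed 1.5-fold. Il1r2, the decoy receptor, had the highest median, 42.3 FPKM, and was highest in library 11 at 58.5 FPKM. The signalling receptor Il1r1 stayed between 4.57 and 7.22 FPKM. Il18bp, which neutralises IL-18, ranged from 14.6 FPKM in library 10 to 25.1 FPKM in library 8. Of 6 other ligands, looked up with older symbols, 5 were found and 2 had a mean of at least 1 FPKM. Il33 led with a median of 4.90 FPKM, Il1f9, the IL-36γ gene, had 2.87 FPKM, and Il1f10 was listed at 0 in all 15 libraries.

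Of 12 NF-kB genes and targets, all with a mean of at least 1 FPKM, 4 passed 1.5-fold, Nfkb1, Nfkbiz, Ptgs2 and Ccl3. Cxcl2, a chemokine gene, had the highest median, 3304 FPKM, and was lowest in libraries 5 to 8 as deposited, as were Ccl3 and Nfkb1. Nfkbiz, which encodes a nuclear co-activator, ran the other way, with its 4 highest values in libraries 5 to 8 and a top of 236 FPKM. Tnf ranged from 530 FPKM in library 10 to 736 FPKM in library 15.

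The genes most like each member were taken by the highest correlation of log2(FPKM + 1) over the 15 libraries, used only to rank them. They are described by the range of their ratio to the member. Because they were chosen on these same 15 libraries, a narrow range follows in part from the choice. No relation was tested. For Nlrp3 they were Ets2, Arid1b and Jun. Jun, an AP-1 subunit and an immediate-early gene, ran from 113 to 232 FPKM, and its ratio to Nlrp3 stayed between 1.19 and 1.35, a 1.14-fold range where Nlrp3 itself spanned 2.18-fold. Ets2, an ETS family factor, kept its ratio to Nlrp3 within 1.37-fold.

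For Il1a the most alike were Ccl6, Eno1 and Inhba, and for Il1b they were Spp1, Clec4e and Ifitm6. Ccl6, a macrophage chemokine gene, ranged from 562 to 1254 FPKM with a ratio to Il1a of 0.72 to 0.92. Clec4e, which encodes the receptor Mincle, ranged from 215 to 405 FPKM, wider than Il1b. For Il1rn they were Rhou, Basp1 and Marcks, and the ratios of Basp1 and Marcks to Il1rn stayed within 1.14-fold and 1.15-fold.

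For Casp1 they were Cytip, Gbp2 and Fbxl5, and Cytip kept a ratio to Casp1 of 1.43 to 1.56, a 1.10-fold range. For Pycard they were Psmb3, Trem2 and Gpx1, and for Gsdmd Atpsckmt, Wdyhv1 and H2-Q4. For Casp4 they were Klrd1, Adam19 and Serpinb9. Klrd1, a receptor gene of NK and T cells, ranged 3.82-fold where Casp4 ranged 1.20-fold, and its ratio to Casp4 varied 3.25-fold. For Nlrc4 they were Pnpt1, Cep76 and Map3k1, and for Il18 Trim36, Spcs2 and Tmem50b.

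Some members share their locus with genes on the other strand. Il1bos overlaps Il1b and was listed at 3.03 to 6.61 FPKM, and Gm14023 overlaps Il1a at 0.23 to 1.23 FPKM. Bco2 and Tex12 overlap Il18, with medians of 2.58 and 0.62 FPKM. Whether counting used strand is not given in the sources used here, so reads of such pairs may not be told apart.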

How the data were processed

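The data were RNA-seq libraries of sorted macrophages. Reads were processed with fastp, HISAT and HTSeq on mm10, per the submitters' processing notes, without versions. The authors deposited one table whose name says FPKM; its formula and annotation are unstated in the sources at hand. Column names showed only the prefix of all 16 samples, so 15 columns were taken as libraries of that 1 group, and 0 columns were left unused. With no treatment per column, no treatment was tested.

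From the table (Python 3.11.15, numpy 2.4.6, pandas 2.3.3, scipy 1.17.1, matplotlib 3.10.9) ranges, ratios and ranks were computed. Genes with a mean of at least 1 FPKM were the background. Whole reads were recovered for 22215 of 22215 genes above 0 in 3 or more libraries, within 0.02 of a whole number; the method was tested on simulated data. No count model was fitted. Intervals are exact at the 95% level and cover counting error only.

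The planned limma fits and permutation tests of co-variation, with their pseudocount, filter and scaling alternatives, were not run. With the number of sets set to 4, no set reached 6 libraries. The members and lists were chosen with earlier results of these data known. Besides the members, genes were named as the 3 most alike each member and the highest gene of each pathway list; further pathway genes, with a range over 1.5-fold or a known role, were chosen after their values were seen. Positions are from GENCODE M21 on GRCm38, sequences from RefSeq. Some genes of the pathway lists are not reported here.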

Additional observations from a re-analysis of the deposited data

How the results depend on the processing

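All values here are the highest library over the lowest. Rescaling to equal sums gave 2.40 for Nlrp3, 1.29 for Pycard, 1.48 for Casp1, 1.34 for Casp4, 1.40 for Gsdmd, 1.86 for Il1a, 1.42 for Il1b and 1.38 for Il1rn, with Nlrc4 and Il18 inside their counting intervals. Median-of-ratios scaling, whose factors spread over 0.25 on the log2 scale, gave 1.90 for Nlrp3, 1.67 for Pycard, 2.14 for Il1a, 1.71 for Il1b and 1.61 for Il1rn, the other 5 staying inside. Without libraries 5 to 8, an alternative chosen after seeing the data, the values were 1.74 for Nlrp3, 1.08 for Casp4, 1.23 for Gsdmd, 1.34 for Il1a, 1.30 for Il1b and 1.38 for Il1rn, the other 4 staying inside. Leaving out 1 library at a time gave 2.10 to 2.18 for Nlrp3, 1.43 to 1.48 for Nlrc4, 1.33 to 1.40 for Pycard, 1.34 to 1.37 for Casp1, 1.18 to 1.20 for Casp4, 1.28 to 1.31 for Gsdmd, 1.87 to 1.94 for Il1a, 1.47 to 1.49 for Il1b, 1.35 to 1.39 for Il18, 1.42 to 1.43 for Il1rn. Genes past 1.5-fold numbered 5372 at a mean of at least 1 FPKM, 9456 at 0.1 FPKM and 20056 with no filter; the cause was not tested. No paired analysis was possible because the columns carry no replicate number of a sample. Depth limits Nlrc4 and Il18, with 1044 or fewer reads per library.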
